A study of Homo sapiens with 6 samples.

Results

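The transcripts of 10 receptor tyrosine kinases linked to glioblastoma were examined in U251, a long-established cell line from a human glioblastoma. The genes EGFR, ERBB2, PDGFRA, PDGFRB, MET, AXL, FGFR1, IGF1R, EPHA2 and DDR1 were taken by name from a table of 58735 genes, and all 10 were found. The TNF-α group received recombinant human tumor necrosis factor-α at 10 ng/mL for 24 h, and the negative control (NC) group received the same volume of sterile deionized water for 24 h. Each group held 3 libraries that the labels describe as independent biological replicates of this single line. Expression was given as FPKM, the fragments of a gene divided by its length and by the size of the library. The length was that of all annotated exons of a gene merged. Levels could thus be compared between genes, with the limit that merged exons can be longer than the transcript expressed.

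Receptor tyrosine kinases are membrane proteins that bind a ligand outside the cell and phosphorylate tyrosines inside it. The phosphorylated tail recruits adaptors that feed the RAS-ERK and PI3K-AKT cascades. EGFR, PDGFRA and MET are among the receptors most often amplified or altered in glioblastoma, and AXL and EPHA2 are known for roles in invasion and in the mesenchymal state of these tumors. The set also holds ERBB2, the EGFR partner without a known ligand of its own, PDGFRB, which binds PDGF-B and PDGF-D, FGFR1 for fibroblast growth factors, IGF1R for insulin-like growth factors, and DDR1, which is activated by collagen.

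The reads in genes numbered 31992167 to 37897044 per library. In TNF-α replicates 2 and 3, genes longer than 8 kb took 16.6% and 17.9% of these reads, against 28.8% to 29.1% in the other 4 libraries. The same 2 libraries had 8.11% and 6.96% of reads in ribosomal protein genes, against 2.90% to 3.22%, and the library size behind their FPKM was 0.693 and 0.759 of their reads in genes, against 0.925 to 0.959. The labels name no batch. TNF-α replicate 1 had the treatment without that difference, and within TNF-α replicates 2 and 3 the difference and the treatment cannot be told apart. The receptors of the set are therefore given library by library. All 8 genes chosen to check the treatment were past the threshold and higher in the TNF-α group, with log2 fold changes of 5.33 for CCL2, 4.12 for CXCL8, 3.76 for ICAM1 and 3.48 for RELB. RELB lost the call under 7 of the 19 alternatives run, with adjusted p-values of 0.0541 to 0.151 there, and the other 3 genes named kept it. Of the glial markers, VIM, CD44, SOX2 and NES were between 22.6 and 974 FPKM in every library, whereas AQP4 had no read in any library and OLIG2 had at most 2. Of the 7 glial markers tested, 3 had a log2 fold change above 0 and 4 below, and the 10 listed summed to 614 to 666 FPKM in the NC group and 728 to 1231.5 FPKM in the TNF-α group. GFAP, the astrocyte filament gene, was the single one past the threshold and fell from 8.24 ± 1.19 to 2.19 ± 0.537 FPKM (SD, n = 3, adjusted p 0.0210), a call lost under 8 of 19 alternatives. The 12 markers of blood, endothelial, epithelial, oligodendrocyte and neuronal cells summed to 1.07 to 1.39 FPKM in the NC group and 0.636 to 1.14 FPKM in the TNF-α group, with PTPRC, CD3E and MOG at 0.

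Sequence before the transcription start was taken from RefSeq (GRCh38.p14) for 9 of the 10 receptors. FGFR1 had no entry. A start region of 250 bases is shown for 3 receptors on which the results turn, namely PDGFRA, the receptor that passed the test, EGFR, whose TNF-α libraries lay on both sides of the NC group, and EPHA2, the receptor with the highest level. Capitals mark the GC box GGGCGG on either strand, a motif of the SP1 family.
PDGFRA chr4:54233710-54233959, plus strand: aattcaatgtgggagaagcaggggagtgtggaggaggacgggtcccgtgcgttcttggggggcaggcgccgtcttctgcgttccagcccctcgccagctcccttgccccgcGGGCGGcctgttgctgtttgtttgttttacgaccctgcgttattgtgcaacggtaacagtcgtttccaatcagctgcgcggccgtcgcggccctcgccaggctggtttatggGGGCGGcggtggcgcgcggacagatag
EGFR chr7:55018767-55019016, plus strand: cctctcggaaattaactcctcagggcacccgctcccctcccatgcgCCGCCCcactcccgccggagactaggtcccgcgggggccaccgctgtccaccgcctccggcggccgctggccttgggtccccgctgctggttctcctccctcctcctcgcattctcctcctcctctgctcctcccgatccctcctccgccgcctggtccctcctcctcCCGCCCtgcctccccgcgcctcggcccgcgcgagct
EPHA2 chr1:16156070-16156319, minus strand: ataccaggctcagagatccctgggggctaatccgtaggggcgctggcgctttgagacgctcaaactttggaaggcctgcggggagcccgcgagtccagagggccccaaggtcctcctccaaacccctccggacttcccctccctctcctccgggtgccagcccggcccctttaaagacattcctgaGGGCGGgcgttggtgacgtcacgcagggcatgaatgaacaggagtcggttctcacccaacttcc
The PDGFRA region shown lies before the inner of its RefSeq starts, 4863 bases inside the gene, and holds no annotated exon of the gene. It has 2 GC boxes, the EGFR region has 2 and the EPHA2 region has 1, and a GC box was present in 42.6% of all 35116 RefSeq start regions of this length.

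TNF-α acts through NF-kB and AP-1, so the motifs of both factors were searched on both strands in the 19 start regions of the 9 receptors. The NF-kB consensus was matched in 2 of the 8 DDR1 regions, some of which overlap, and in 0 of the regions of the other receptors, against 5.21% of all RefSeq start regions. The 2 DDR1 regions with a match overlap no other, and their RefSeq starts lie 4549 and 6513 bases inside the gene. The 3 DDR1 matches are shown in capitals with 10 bases on each side, in regions that are largely or wholly annotated exon of DDR1. DDR1 was the only receptor with a match, and it also held 8 of the 19 regions searched. A link between these matches and the values of DDR1 was not tested.
DDR1 chr6:30880831-30880860, plus strand: ttctttgtctGGGGTCTCCCtttggttctg
DDR1 chr6:30882772-30882801, plus strand: cctggggtgtGGAATGTCCCaccagggtat
DDR1 chr6:30882823-30882852, plus strand: caggcctgttGGGGCTTTCCcagagcacag
For AP-1 the pattern TGANTCA was used, which is looser than the AP-1 site with C or G at its middle base. It was matched in 4 of the 19 regions, in DDR1, EGFR, ERBB2 and PDGFRA, against 6.57% of all regions. The match in ERBB2 was TGATTCA and that in PDGFRA was TGAATCA, so neither has C or G there. These matches are letters in a window and were not tested as binding sites.

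To describe which receptors U251 cells express, the levels in the NC group were ordered first. EPHA2 (ENSG00000142627, chromosome 1, 16124337 to 16156087) led with 332, 320.1 and 378 FPKM in NC replicates 1 to 3. AXL (ENSG00000167601, chromosome 19, 41219203 to 41261766), the receptor for GAS6, followed with 229, 225 and 254 FPKM. By NC mean these receptors ranked 61 and 102 among the 12136 genes with at least 1 FPKM in at least 3 libraries. MET (ENSG00000105976, chromosome 7, 116672390 to 116798386), the receptor of hepatocyte growth factor, had 84.7, 84.7 and 84.3 FPKM and ranked 434. EGFR (ENSG00000146648, chromosome 7, 55019021 to 55211628) had 22.8, 23.6 and 24.5 FPKM, and DDR1 (ENSG00000204580, chromosome 6, 30876421 to 30900156) had 14.7, 14.6 and 15.6 FPKM. The upper part of the order was thus clear, since none of these 5 receptors overlapped its neighbour over the 3 libraries.

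Below them, IGF1R (ENSG00000140443, chromosome 15, 98648539 to 98964530) had 11.8, 11.9 and 12.6 FPKM. FGFR1 (ENSG00000077782, chromosome 8, 38400215 to 38468834), with 8.65, 8.65 and 9.81 FPKM, and ERBB2 (ENSG00000141736, chromosome 17, 39687914 to 39730426), with 8.54, 8.16 and 9.29 FPKM, overlapped and had no order beyond their spread. PDGFRA (ENSG00000134853, chromosome 4, 54229097 to 54298247) had 2.94, 2.71 and 2.75 FPKM. PDGFRB (ENSG00000113721, chromosome 5, 150113837 to 150155872) had 0.116, 0.137 and 0.174 FPKM, resting on 30, 32 and 40 reads. The receptors of the set therefore spanned levels from 0.143 ± 0.0295 FPKM for PDGFRB to 343 ± 30.5 FPKM for EPHA2 (SD, n = 3). Among all 58 receptor tyrosine kinase genes of the genome that were listed, EPHA2 and AXL together took 67.0%, 66.8% and 68.9% of the summed FPKM in the NC libraries. They took 69.7%, 79.6% and 79.5% in TNF-α replicates 1 to 3.

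**Figure D1:**
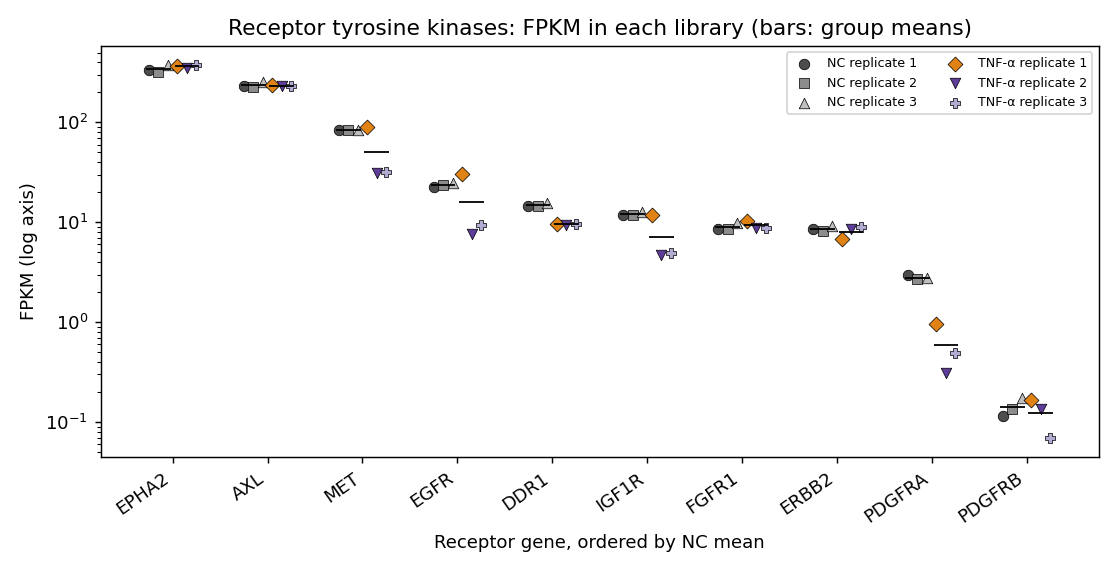
FPKM of the 10 receptors in each of the 6 libraries, on a log axis, ordered by NC mean; symbols are libraries and bars are group means. PDGFRA lay lower in all 3 TNF-α libraries (0.313 to 0.959) than in the NC libraries (2.71 to 2.94), while MET, EGFR and IGF1R lay lower in TNF-α replicates 2 and 3 but not in replicate 1.

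The TNF-α group was then compared with the NC group by limma on log2(FPKM + 1), with p-values adjusted over the 12136 genes tested. Of the 10 receptors, 9 passed the filter on low values and PDGFRB did not. PDGFRA alone passed the adjusted p threshold of 0.05, with a fall. Over all genes tested the background was 1.01% past the threshold, with 0.717% in the direction of higher TNF-α values and 0.297% in the direction of lower ones. The groups did not overlap in 2 receptors, PDGFRA and DDR1, which both lay lower in the TNF-α group, a share close to that of all genes tested, 15.3% in that direction. In the other direction it was 14.8% of all genes and no receptor of the set. As these are bulk libraries, fewer cells of a type and less RNA per cell cannot be told apart.

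PDGFRA, the receptor for PDGF-A, PDGF-B and PDGF-C that marks oligodendrocyte precursors and proneural glioblastoma, fell in every TNF-α library. It had 0.959, 0.313 and 0.487 FPKM in TNF-α replicates 1 to 3, resting on 300, 79 and 115 reads against 859 to 1033 in the NC libraries. All 3 values were below the lowest NC library. The group means were 2.80 ± 0.123 and 0.586 ± 0.334 FPKM (SD, n = 3), which is 4.77-fold lower with TNF-α. In TNF-α replicate 1 alone PDGFRA was 2.92-fold below the NC mean, less than in replicates 2 and 3. By limma its log2 fold change of -1.28 (SE 0.17) had an adjusted p-value of 0.0350. It stayed below 0 under each of the 19 alternatives run, from -2.68 to -0.90, but the call was lost under 11 of them, with adjusted p-values from 0.0748 to 0.242 in those 11. Leaving out any single library other than TNF-α replicate 1 ended the call. A read-through gene, AC058822.1, overlaps 15.8% of the exonic length of PDGFRA and had 0 reads in all 6 libraries.

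DDR1, the collagen receptor, showed the most uniform TNF-α libraries of the set. Its values were 9.60, 9.40 and 9.58 FPKM, against 14.6 to 15.6 FPKM in the NC group. The mean was 9.53 ± 0.113 FPKM against 15.0 ± 0.575 FPKM (SD, n = 3), which is 1.57-fold lower. The log2 fold change was -0.60 (SE 0.11, 95% interval -0.87 to -0.33), and its adjusted p of 0.0925 did not pass. The log2 ratio to the NC mean was -0.59, -0.62 and -0.59 in TNF-α replicates 1 to 3. With a correction for exonic length and GC content the adjusted p was 0.0282, where 2.15% of all genes passed. DDR1 had the highest GC content of the set, 61.6%.

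EGFR, MET and IGF1R, which all signal strongly to ERK and AKT when bound by ligand, differed between the TNF-α libraries. EGFR had 30.4 FPKM in TNF-α replicate 1, above every NC library, and 7.64 and 9.39 FPKM in replicates 2 and 3, below every NC library. MET had 89.4, 31.4 and 31.8 FPKM, so that replicate 1 again lay above the NC range. IGF1R had 11.8, 4.75 and 4.98 FPKM, with replicate 1 within the NC range. The group means were 15.8 ± 12.6 FPKM for EGFR, 50.8 ± 33.3 FPKM for MET and 7.19 ± 4.02 FPKM for IGF1R (SD, n = 3), and none of these receptors passed. Their log2 fold changes were -0.80 (SE 0.48, adjusted p 0.238), -0.90 (SE 0.41, adjusted p 0.195) and -0.78 (SE 0.32, adjusted p 0.195). Without TNF-α replicate 1 the values were -1.38, -1.39 and -1.16, and 5 of the 9 receptors passed (these 3 with PDGFRA and DDR1), a share below the 79.4% of all genes that passed. With TNF-α replicate 1 alone against the NC group, which takes its spread from the NC libraries, the log2 fold changes were 0.35 for EGFR, 0.079 for MET and -0.031 for IGF1R. In that comparison PDGFRA and DDR1 passed, at -0.95 and -0.59, where 6.03% of all genes passed.

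EPHA2, AXL, FGFR1 and ERBB2 had overlapping groups. EPHA2 had 366, 353 and 379 FPKM in the TNF-α libraries, a log2 fold change of 0.10 with a 95% interval of -0.32 to 0.51 (adjusted p 0.669). AXL had 236, 234 and 229.9 FPKM, a log2 fold change of -0.015 with an interval of -0.40 to 0.37 (adjusted p 0.944). These levels remained the highest of the set. FGFR1 had 10.4, 8.83 and 8.74 FPKM, a log2 fold change of 0.037 with an interval of -0.28 to 0.35 (adjusted p 0.830). ERBB2, with 6.73, 8.49 and 8.98 FPKM, differed by -0.099 on the log2 scale, and the interval ran from -0.45 to 0.25 (adjusted p 0.603). Exons of MIEN1 and PGAP3 on the other strand cover 7.41% of the exonic length of ERBB2. The use of strand in counting was not given in the sources used here, so reads there may be miscounted. The size of such an error in ERBB2 was not measured and is not bounded by that share of length. The signs for EPHA2 and FGFR1 were not fixed, since both were below 0 when FPKM was rescaled to TPM (-0.41 and -0.45). Under TPM the median over all tested genes was itself -0.42, from which EPHA2 and FGFR1 differed by 0.0089 and -0.030. AXL and ERBB2 also moved with the scaling, to -0.52 and -0.59 under TPM, which differed from that median by -0.10 and -0.18. AXL moved to -0.70 under quantile normalization. Neither receptor passed under these scalings. PDGFRB had 0.166, 0.135 and 0.0692 FPKM in the TNF-α libraries, resting on 38, 25 and 12 reads, and overlapped the NC group.

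In the TNF-α group the order kept EPHA2, AXL, MET and EGFR at the top and PDGFRA and PDGFRB at the bottom by mean. DDR1, FGFR1, ERBB2 and IGF1R, with means of 9.53, 9.31, 8.07 and 7.19 FPKM, had overlapping ranges between neighbours in that order. DDR1, at 9.40 FPKM or more, nevertheless lay above ERBB2, at 8.98 FPKM or less, in every TNF-α library. EGFR and DDR1 also overlapped there, because EGFR ranged from 7.64 to 30.4 FPKM.

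**Figure D2:**
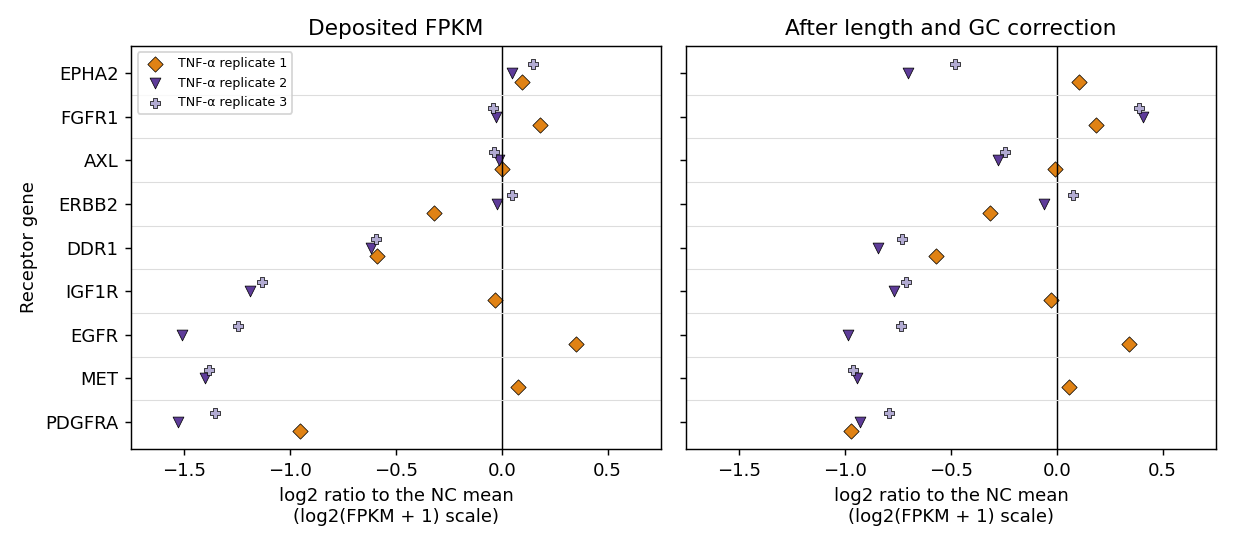
The log2 ratio of each TNF-α library to the NC mean is shown for the 9 tested receptors. The left panel is from the deposited FPKM. The right panel is after the correction for exonic length and GC content. Symbols are libraries. PDGFRA and DDR1 were below 0 in all 3 libraries in both panels, whereas EGFR was at 0.35 in TNF-α replicate 1 and at -1.51 and -1.24 in replicates 2 and 3 before correction.

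Exonic length and base composition moved with these differences. The length is that of the merged exons of a gene and can exceed that of any single transcript. GC content is that of the longest transcript. The exonic lengths of the tested receptors ran from 4159 bases for EPHA2 to 13941 bases for IGF1R, and 6 of the 9 exceeded 8 kb. The median log2 ratio of all 2369 tested genes over 8 kb was 0.0047, -0.56 and -0.52 in the TNF-α libraries, in the order of their numbers. Among these long genes it depended on GC content. Those with 45% to 50% GC (443 genes) had medians of -0.62 and -0.57 in TNF-α replicates 2 and 3, and EGFR, with 47.5% GC, had -1.51 and -1.24. Those with 50% to 55% GC (322 genes) had medians of -0.34 in both libraries, and IGF1R, with 51.7% GC, had -1.19 and -1.13, whereas FGFR1, with 51.3% GC, had -0.028 and -0.042. Those above 55% GC (366 genes) had medians of 0.016 and -0.0035, and ERBB2 (57.5% GC) had -0.024 and 0.048, whereas DDR1 had -0.62 and -0.59. PDGFRA, with 42.9% GC, had -1.53 and -1.35 beside class medians of -0.68 and -0.63 (638 genes). In TNF-α replicate 1 the 5 class medians lay between -0.039 and 0.029, and PDGFRA had -0.95 there. How much of the receptors' values goes with length and GC content was not tested. Only 1 correction was applied, with separate terms for length and for GC content. Such a correction also removes any part of the treatment's effect that varies with them. After it PDGFRA had log2 ratios of -0.97, -0.93 and -0.79 and a log2 fold change of -0.90 (adjusted p 0.0178), while EGFR, MET and IGF1R had -0.46, -0.62 and -0.50 (adjusted p 0.326, 0.188 and 0.176). EPHA2 became -0.36 (adjusted p 0.252).

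**Figure D3:**
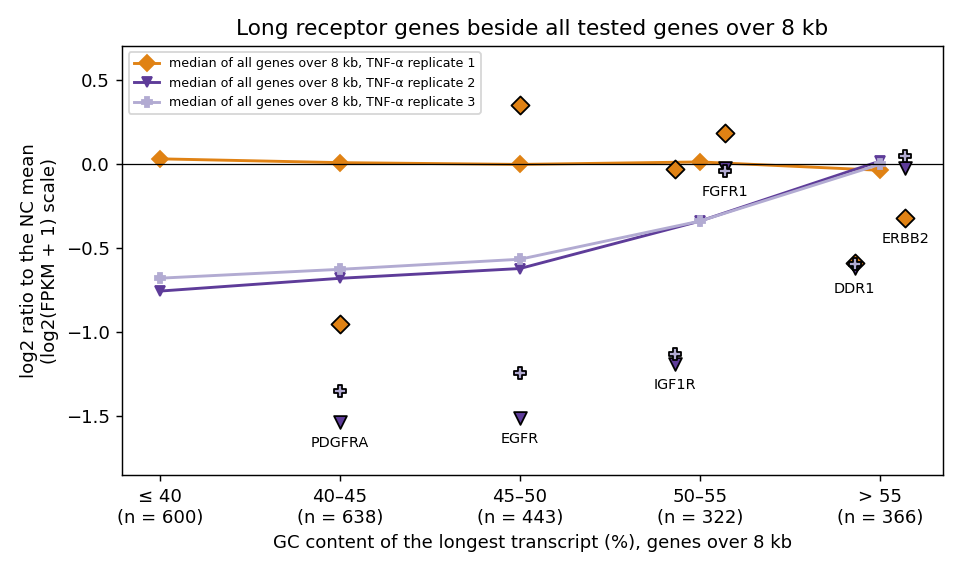
Median log2 ratio to the NC mean of all tested genes over 8 kb in 5 classes of GC content, as lines for TNF-α replicates 1 to 3, with the 6 receptors over 8 kb as separate symbols in their class. The lines of replicates 2 and 3 run from -0.76 and -0.68 in the lowest class to 0.016 and -0.0035 in the highest, and DDR1 lay below them in the highest class.

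The other receptor tyrosine kinases were set beside the 10. Of 48 genes listed, 13 passed the filter on low values, 2 with a log2 fold change above 0 and 11 below, and 0 passed the test by limma, with 5 at an unadjusted p under 0.05. Over all genes tested 53% were above 0, 47% were below 0, and 24.2% had an unadjusted p under 0.05. Their median log2 fold change was -0.52, against -0.60 for the 9 receptors of the set and 0.043 for all genes tested, and by library it was -0.16, -0.83 and -0.77. These medians depended on the filter and scaling: without the filter they were -0.027 and -0.35 for the other receptors and the set, with the length and GC correction -0.28 and -0.46, and with limma-voom -1.15 and -0.92, where all genes had -0.22. EPHA3, an ephrin receptor, had 13.2, 3.22 and 3.10 FPKM in the TNF-α libraries against 20.5 to 21.6 in the NC group, a log2 fold change of -1.82 (SE 0.48, adjusted p 0.184). KDR, the VEGF receptor, had 5.74, 1.95 and 2.00 FPKM against 6.08 to 6.64, a log2 fold change of -0.91 (adjusted p 0.195). Both had groups that did not overlap, as had 6 of the 13 in all, each lower with TNF-α, against 15.3% of all genes tested. In the other direction it was 0 of the 13, against 14.8%. EPHB4 (-0.13), PTK7 (-0.066), EPHB2 (0.0019), RYK (-0.15) and LMTK2 (-0.82, with 12.2, 4.83 and 4.55 FPKM in the TNF-α libraries) had overlapping groups, with adjusted p-values from 0.195 to 0.992.

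**Figure D4:**
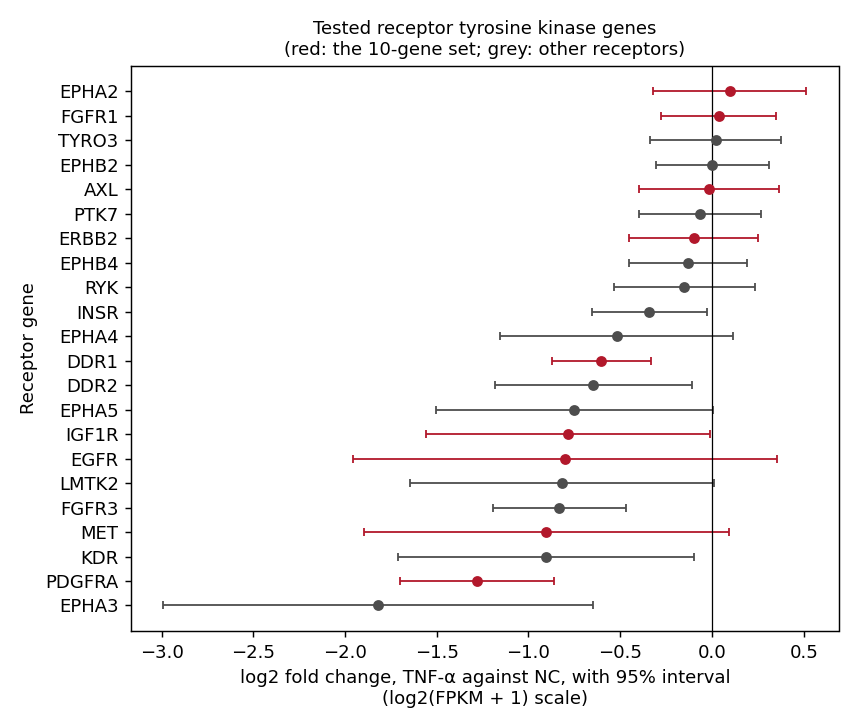
Log2 fold change of the TNF-α group against the NC group with its 95% interval for the 22 receptor tyrosine kinase genes tested, red for the set of 10 and grey for the others. The interval of PDGFRA ran from -1.70 to -0.86 and that of EGFR from -1.96 to 0.35.

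The ligands of these receptors were measured in the same cells. Of 27 ligand genes, 17 passed the filter, and 3 rose past the threshold while 0 fell, which are 2 ligands of PDGF receptors and 1 of EGFR. Over all genes tested 0.717% rose and 0.297% fell. The median log2 fold change of the 17 was 0.45, it was 0.18 with TNF-α replicate 1 alone, and it was -0.0050 over all ligands detected when no filter was applied. HBEGF, a membrane-anchored EGFR ligand released by proteolysis, had 7.23, 7.08 and 8.06 FPKM in the NC group and 32.8, 46.1 and 41.0 FPKM in the TNF-α group. This was a 5.36-fold rise, with a log2 fold change of 2.27 (SE 0.16, adjusted p 0.00407). PDGFB had 0.839, 0.997 and 0.960 FPKM in the NC group and 3.71, 4.47 and 4.26 FPKM in the TNF-α group, a log2 fold change of 1.41 (SE 0.12, adjusted p 0.00872). PDGFA had 5.79, 5.87 and 7.33 FPKM in the NC group and 12.4, 15.5 and 14.5 FPKM in the TNF-α group, a log2 fold change of 1.05 (SE 0.15, adjusted p 0.0417). Each of the 3 ligands was thus higher in all 3 TNF-α libraries, replicate 1 included, than in every NC library. PDGFA lost the call under 11 of 19 alternatives, PDGFB under 8 and HBEGF under 3, and their log2 fold changes kept their sign.

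PDGFC, GAS6, FGF2 and EFNA4, the most abundant ligand genes of PDGFRA, AXL, FGFR1 and EPHA2 by the mean of both groups, did not pass. Within the TNF-α group FGF5 was above FGF2, at 11.3 FPKM. PDGFC had 19.0 ± 0.752 and 16.9 ± 4.21 FPKM (SD, n = 3, adjusted p 0.462), with 21.6, 13.5 and 15.6 FPKM in the TNF-α libraries. GAS6, the ligand of AXL, had 17.4 ± 1.74 and 34.3 ± 13.3 FPKM (adjusted p 0.195), and its TNF-α libraries had 19.2, 44.3 and 39.5 FPKM. FGF2 had 11.2 ± 0.754 and 5.68 ± 2.55 FPKM (adjusted p 0.195), with 8.55, 3.66 and 4.83 FPKM in the TNF-α libraries, all below the NC group. Genes on the other strand cover 7.01% of the exonic length of GAS6 and 11.9% of that of FGF2. EFNA4, an ephrin that binds EPHA2, had 6.67 ± 1.10 and 14.3 ± 8.46 FPKM (adjusted p 0.243), with 5.03, 21.6 and 16.2 FPKM in the TNF-α libraries. Exons of another gene on the same strand cover 15.0% of the exonic length of EFNA4. HGF, the ligand of MET, had 0 reads in all 6 libraries, where 3 reads would correspond to 0.0085 to 0.0126 FPKM. IGF1 was detected with 3 reads in a single library, NC replicate 1, and most of its exonic length (82.4%) is shared with a gene on the other strand. IGF2, the other insulin-like growth factor gene in the list, has more than a single entry and was left out of this ranking. IGF1 therefore does not describe the level of IGF1R ligands as a whole. A difference in HGF or IGF1 was not detectable at this depth.

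**Figure D5:**
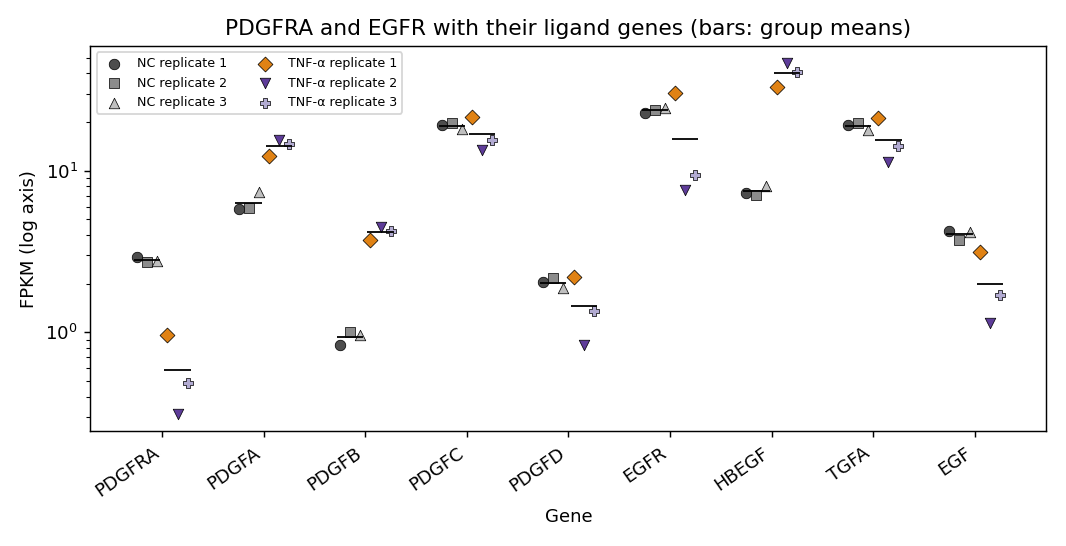
FPKM of PDGFRA with 4 PDGF genes and of EGFR with 3 of its ligand genes in each of the 6 libraries, on a log axis; symbols are libraries and bars are group means. PDGFRA lay lower while PDGFA, PDGFB and HBEGF lay higher in all 3 TNF-α libraries than in the NC libraries.

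Genes downstream of the receptors were counted by role, against shares over all genes tested of 24.2% at an unadjusted p under 0.05 and 47% below 0. Of 21 adaptors and ERK cascade genes, all tested, 0 passed by limma and 7 had an unadjusted p under 0.05, with 16 of 21 log2 fold changes below 0 and library medians of -0.033, -0.64 and -0.52. Of 11 tested PI3K-AKT genes 0 passed and 4 had an unadjusted p under 0.05, with library medians of -0.032, -0.95 and -0.92. Of 20 tested receptor brakes, such as CBL, ERRFI1 and the SPRY genes, 0 passed and 6 had an unadjusted p under 0.05, with library medians of 0.070, -0.81 and -0.66. The shift below 0 in these lists was thus in TNF-α replicates 2 and 3 and was at most 0.070 in size in replicate 1. Of 5 tested genes of ligand shedding 0 passed and 3 had an unadjusted p under 0.05.

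The 12 genes listed as transcribed in response to ERK activity stood on the other side, and ERK activity itself was not measured here. The list had 11 of 12 log2 fold changes above 0, a median of 0.57, and library medians of 0.79, 0.39 and 0.57. Over all genes tested 53% were above 0. The groups did not overlap in 9 of the 12, all higher with TNF-α, against 14.8% of all genes, and 2 passed the threshold, against 0.717%. All tested genes of 1000 to 2000 bases had median log2 ratios of 0.92 and 0.81 in TNF-α replicates 2 and 3. Those of 2000 to 4000 bases had 0.54 and 0.45. FOSL1, with 1887 bases, and DUSP5, with 2615, lie in these classes. Shares among genes of like length were not counted, and the list was written with earlier results of these data known. Under TPM the median of the list was 0.13, where that of all genes was -0.42. DUSP5, a nuclear ERK phosphatase, had 5.00 to 6.62 FPKM in the NC group and 12.7, 16.3 and 15.5 FPKM in the TNF-α group, a log2 fold change of 1.22 (SE 0.16, adjusted p 0.0312). FOSL1, an AP-1 subunit, had 157 to 181 FPKM in the NC group and 331, 369.6 and 368 FPKM in the TNF-α group, a log2 fold change of 1.08 (SE 0.16, adjusted p 0.0498). DUSP5 lost the call under 11 of 19 alternatives and FOSL1 under 16, and the direction of both held under each alternative run. With the length and GC correction the list median was 0.51, and DUSP5 and FOSL1 had 0.72 and 0.44 (limma, adjusted p 0.0907 and 0.227). FOSL1 then had log2 ratios of 0.99, 0.076 and 0.26 in TNF-α replicates 1 to 3, against 0.98, 1.13 and 1.13 before. The count of groups that did not overlap was taken from values without that correction.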

How the data were processed

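RNA-seq of 3 NC and 3 TNF-α libraries of U251 cells was analysed, with groups and replicate numbers taken from the sample titles. Per the labels, mRNA was selected with oligo(dT) beads, and the submitters' processing notes list HISAT2 2.0.5, StringTie 1.3.3b and featureCounts 1.5.0. The use of strand in counting is not given in the sources used here. The authors deposited FPKM per gene and library, unpooled. Identifiers, positions and lengths of all 58735 genes equalled GENCODE release 29 (GRCh38). A further 6 columns of per-sample values match no sample described here and were not used.

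Dividing out gene length and library size turned 100% of values into whole reads (within 0.01 reads, or 0.01% above 100 reads), which are the reads quoted. For the genes with the most reads this tolerance is as wide as the rounding, so the check cannot fail there. Read limits cover counting error only, and the 95% intervals of log2 fold changes come from the limma fit and reflect the spread between libraries. Genes that reached 1 FPKM in 3 or more of the 6 libraries (12136) were compared as log2(FPKM + 1) with limma 3.58.1 in R 4.3.3 (lmFit, eBayes with trend, two-sided), with Benjamini-Hochberg adjustment and a threshold of 0.05. This scale understates the change of low genes. The script was tested on simulated data. The length and GC correction subtracts natural splines (5 degrees of freedom each) from log2 ratios. The members and lists were chosen with earlier results of these data known. Named were all members, up to 4 genes past the threshold per list, other receptors with at least 5 FPKM in either group, and the most abundant ligand per receptor. That choice of ligands left out IGF2, whose name has more than a single entry. EGF, TGFA and PDGFD in a plot were added with their values known. Of the listed markers of other cell types, 1 is not reported here. Tables and plots used Python 3.11.15, numpy 2.4.6, pandas 2.3.3 and matplotlib 3.10.9.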

Additional observations from a re-analysis of the deposited data

How the results depend on the processing

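A total of 19 alternatives were run, of which 1 was chosen after seeing the data. The count of all genes past the threshold (123) became 58 under TPM, 58 without a filter, 76 with limma-voom on the recovered reads, 185 under quantile normalization, 261 with the length and GC correction, 732 with TNF-α replicate 1 alone, and 10 to 9630 with single libraries left out. The count of receptors past the threshold (1, PDGFRA) became 0 with a pseudocount of 0.1, without a filter, under TPM and with limma-voom, 2 (PDGFRA and DDR1) under quantile normalization, with the length and GC correction and with TNF-α replicate 1 alone, and 0 to 5 with single libraries left out, where 5 was reached without TNF-α replicate 1 and 0 without any other library. The cause of these differences was not tested.

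The replicate numbers did not pair the libraries (correlations of deviations -0.014, -0.18 and 0.12 for numbers 1 to 3, and no library matched its own number best). The fit with a replicate block gave 24 genes and 0 receptors, and 40 genes and 0 receptors with the length and GC correction added.

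Signs turned for receptors near 0. EPHA2 was -0.41 under TPM, -0.66 under quantile normalization, -0.17 with limma-voom, -0.36 with the length and GC correction and -0.36 with the block added to it. FGFR1 was -0.45 under TPM, -0.010 with median centring, -0.23 with limma-voom and -0.035 to 0.091 with single libraries left out. With single libraries left out AXL ran from -0.048 to 0.038, ERBB2 from -0.17 to 0.012, PTK7 from -0.14 to 0.00046 and EPHB2 from -0.063 to 0.048. EPHB2 was also -0.48 under TPM, -0.045 with median centring and -0.27 with limma-voom. RYK was 0.23 and PDGFC 0.044 with the length and GC correction, with and without the block. With TNF-α replicate 1 alone the values were 0.35 (EGFR), 0.079 (MET), 0.0018 (AXL), -0.091 (EPHB2), 0.070 (RYK), 0.18 (PDGFC) and -0.34 (EFNA4). Over the alternatives 139 receptor values kept their direction and side of the threshold, 7 gained the call, 11 lost it and 14 turned sign. Read depth limited HGF and IGF1, whose differences were not detectable. PDGFRB, below the filter, was fitted under the filters that kept it, at -0.025 (adjusted p 0.813 and 0.769).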

Other observations

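Some receptor tyrosine kinases under the filter on low values also lay lower with TNF-α, and they are named here after their values were seen. KIT, the stem cell factor receptor of the PDGFRA family that lies beside it on chromosome 4, had 55, 57 and 52 reads in NC replicates 1 to 3 and 10, 6 and 2 reads in TNF-α replicates 1 to 3. FGFR2 had 240, 213 and 196 reads in the NC group and 86, 33 and 12 reads in the TNF-α group. Both had groups that did not overlap, as had 15.3% of the genes tested in that direction, and neither entered the test. The share among genes under the filter was not counted, and these reads are not corrected for length or GC content. FGFR3, which did, had means of 1.57 ± 0.260 FPKM (NC) and 0.445 ± 0.181 FPKM (TNF-α; SD, n = 3) and a limma log2 fold change of -0.83 (adjusted p 0.0864).

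Also chosen after their values were seen, RHBDF2, ADAM17 and FGF5 did not pass. RHBDF2, a partner of the sheddase ADAM17, had 2.08, 2.63 and 2.33 FPKM in the TNF-α libraries against 0.922 to 1.08 in the NC libraries (limma log2 fold change 0.74, adjusted p 0.0611). ADAM17 itself had 6.31, 1.26 and 1.45 FPKM in the TNF-α libraries against 5.13 to 5.78 in the NC libraries. FGF5, a ligand of FGFR1, had 15.3, 8.54 and 10.1 FPKM in the TNF-α libraries against 5.09 to 5.88 FPKM in the NC group (adjusted p 0.157).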
